A study of Mus musculus with 2 samples.

Results

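Matrix metalloproteinases and their tissue inhibitors were described here through 9 of the 33696 genes counted, taken by symbol from a fixed list. The 6 proteases were Mmp2, Mmp3, Mmp12, Mmp13, Mmp14 and Mmp19, and the 3 inhibitors were Timp1, Timp2 and Timp3. Mmp3, Mmp12 and Mmp13 lie on chromosome 9, Mmp19 and Timp3 on 10, Mmp2 on 8, Mmp14 on 14, Timp1 on X and Timp2 on 11. All 9 passed a minimum of 50 UMIs (unique molecular identifiers, each a captured transcript) over the cells analysed. The series held 2 libraries, 1 per group, from subcutaneous tumours of 4T1, a mouse breast cancer line, with genotype given as WT. The treated group received PCN, called PATCH in the series design, and the control group received PBS in its place. Neither the dose and time of the treatment nor the strain, age and number of the mice is given in the sources used here. RNA was captured with Chromium Single Cell 3′ v3 reagents.

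The count matrix held the treated library, with 12309 barcodes and 96873409 UMIs. Its 10835 cells kept by the authors held 60652188 UMIs, with a median of 3575 per cell, and every value below refers to these cells unless stated otherwise. The authors' list also named 11643 control cells, of which 37 barcodes were in the matrix, 33 of them shared with treated cells. The PBS library's own counts were not used here, and nothing below compares treated with control tumours. A single library gives no replicates and hence no test, and the 95% intervals, exact Poisson for UMI sums and exact Clopper-Pearson for shares, cover counting error only. Levels are in CPM (UMIs of a gene per 1000000 UMIs of the group).

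Cells were classed by the share of their UMIs in genes other than the 9 described, taking the first rule met. Cells with S100a8, S100a9, Csf3r and G0s2 at 2% or more were called neutrophils (3518 cells, 32.5%). Those with Col1a2, Col3a1 and Dcn at 0.5% were called fibroblasts (325 cells, 3.0%), and those with Krt8, Krt18, Krt7 and Epcam at 0.1% tumour cells (322 cells, 2.97%). Those with Cd3e, Cd3g, Trbc2 and Ncr1 at 0.1% were called T/NK cells (238 cells, 2.20%), and those with C1qa, C1qb, Csf1r, Apoe and Lyz2 at 0.3% macrophages (4672 cells, 43.1%). The remaining 1760 cells (16.2%) stayed unclassified. A total of 345 cells met more than 1 rule, 311 of them in the neutrophil class. Median depth differed widely, at 11662 UMIs in fibroblasts, 11176.5 in tumour cells, 7168.5 in macrophages, 2916.5 in T/NK cells, 2699 in unclassified cells and 1698 in neutrophils.

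The class names were checked with markers that the rules did not use. The 6 further fibroblast markers summed to 17278 CPM in fibroblasts and to at most 129 CPM elsewhere. The 6 macrophage markers summed to 4575 CPM in macrophages but also to 1172 CPM in unclassified cells. The 5 T/NK markers stood at 1518 CPM in T/NK cells, and the 5 neutrophil markers at 9950 CPM in neutrophils. The 5 tumour markers summed to 861 CPM in tumour cells and to 3340 CPM in neutrophils. Without Lcn2, a gene neutrophils also use, and which was set aside after its values were seen, the sums were 648 CPM in tumour cells and 8.50 CPM in neutrophils. Unclassified cells carried 2930 CPM of 5 genes known from osteoclasts (Ctsk, Acp5, Atp6v0d2, Slc9b2 and Ocstamp) and 368 CPM of 5 endothelial genes.

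Matrix metalloproteinases are zinc enzymes that cut collagens, elastin, basement membrane proteins and bound growth factors, and most are secreted as inactive precursors. TIMPs block them by binding the active site. Pro-Mmp2, or gelatinase A, is activated at the cell surface by the membrane-bound Mmp14, with Timp2 as the bridge between them, so that low levels of this inhibitor help activation. In tumours these enzymes are known to come largely from stromal and myeloid cells.

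Mmp13, Mmp12 and Mmp3 are neighbours in the Mmp cluster of chromosome 9, and their promoters are shown because the results below compare how these neighbours were used. The motif searched was TGAGTCA, or TGACTCA on the other strand, the AP-1 site known from collagenase and stromelysin promoters. Sequences are from RefSeq on GRCm38.p6, 100 bases before each annotated start, on the plus strand, with the motif in capitals.
Mmp13, chr9:7272414-7272513: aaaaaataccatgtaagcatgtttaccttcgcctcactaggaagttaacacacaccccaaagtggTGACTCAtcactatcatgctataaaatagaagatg
Mmp12, first start, chr9:7344297-7344396: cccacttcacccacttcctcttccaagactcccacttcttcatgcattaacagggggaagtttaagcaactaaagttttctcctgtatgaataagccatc
Mmp12, second start, chr9:7347274-7347373: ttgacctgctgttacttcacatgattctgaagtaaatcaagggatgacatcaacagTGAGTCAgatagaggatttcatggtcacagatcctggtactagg
Mmp3, chr9:7445722-7445821: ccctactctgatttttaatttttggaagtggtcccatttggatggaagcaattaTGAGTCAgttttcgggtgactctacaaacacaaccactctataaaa
The motif began 35 bases before the start of Mmp13, 46 before that of Mmp3 and 44 before the second start of Mmp12. Of the 7 members matched to a window of 300 bases (250 before and 50 after the start), these 3 held it, and the windows of Mmp14, Timp1, Timp2 and Timp3 did not. Among all 32851 windows, 5.20% held it. A match in these letters is a description and not evidence of binding.

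Mmp2 was the member most nearly held by a single class. It stood at 748 CPM in fibroblasts (interval 721 to 777), against 2.67 CPM in the other kept cells. Each of the other classes and the unclassified cells lay between 1.2 and 3.6 CPM, with overlapping intervals, so no order among them can be given. Fibroblasts held 94.7% of its UMIs, and 91.1% of them had at least 1 UMI of it, or 45.9% after each cell was thinned to 1000 UMIs. The share in neutrophils, which serve as a background here, was 0.597%, and 0.402% after thinning. For every 1000 UMIs of Col1a1, a collagen gene of fibroblasts, there were 52.9 of Mmp2 in fibroblasts, 71.6 in macrophages and 45.3 in neutrophils. The neutrophil ratio lay within counting error of the fibroblast one, and the macrophage ratio above it (57.9 to 87.6). The part of free RNA in these UMIs was not tested.

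Mmp3, or stromelysin 1, which cuts many matrix proteins and activates other pro-MMPs, was also highest in fibroblasts, at 920 CPM (889 to 952), against 11.0 CPM in the other kept cells. Tumour cells came next at 124 CPM (112 to 136), unclassified cells had 8.50 CPM, and no other class passed 4.25 CPM. The tumour-cell level was 1.99 times that of all other kept cells (1.79 to 2.20), just under the 2-fold limit used for calls below. Per 1000 UMIs of Col1a1 there were 2152 of Mmp3 in tumour cells, 65.8 in neutrophils and 65.0 in fibroblasts, and the part of free RNA was not tested. A UMI of Mmp3 was found in 57.8% of fibroblasts and 26.7% of tumour cells, or in 35.3% and 8.27% after thinning, and in 0.711% of neutrophils.

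Mmp3 was less evenly spread over fibroblasts than Mmp2. Only 34 cells, 32 of them fibroblasts, held 50% of all Mmp3 UMIs, and 1 fibroblast alone held 166. For Mmp2, 67 fibroblasts were needed. Fibroblasts with Acta2, the actin of contractile myofibroblasts, at 0.1% of UMIs or more numbered 38, and those below it 287. Mmp3 was detected in 10.5% of the Acta2-positive cells and in 64.1% of those below the limit, or in 5.56% and 39.1% after thinning. Of the 130 Mmp3 UMIs of the Acta2-positive cells 94 came from 1 cell, so that their level of 278 CPM is 77.0 CPM without it, against 1015 CPM in the cells below. Mmp2 stood at 334 CPM in Acta2-positive fibroblasts and 809 CPM in those below.

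Mmp12, the macrophage elastase, had its highest class levels in unclassified cells, at 348 CPM (335 to 361), and in macrophages, at 222 CPM (217 to 227). Neutrophils stood at 29.1 CPM, T/NK cells at 28.5, fibroblasts at 14.0 and tumour cells at 13.5. Single cells weighed on the first pair, with 92 of 219 UMIs in 1 neutrophil and 16 of 24 in 1 T/NK cell. Without the highest cell of each class the levels were 16.9 CPM in neutrophils, 9.52 in T/NK cells, 9.88 in fibroblasts and 11.1 in tumour cells, so no order among these 4 classes can be held. Macrophages held 72.0% of its UMIs and unclassified cells 25.1%. With class limits doubled macrophages held 48.7% of Mmp12 UMIs, and over all barcodes 78.8%. Yet it was a gene of few cells: 13.0% of macrophages had a UMI of it, 5.12% after thinning, and 49 cells (35 macrophages, 13 unclassified and 1 neutrophil) held 50% of all 11431 UMIs. The highest cell held 389.

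The macrophages were then divided by genes other than the members. In 171 macrophages with Inhba, Nos2 and Slc7a2 at 0.1% or more, genes of activin, nitric oxide and arginine uptake, Mmp12 reached 2919 CPM and was found in 39.8% of cells. They made up 34.2% of the gene's UMIs. The level was 301 CPM in 785 macrophages with Arg1 and Ccl24, 94.4 CPM in 2650 macrophages outside every sub-group and 9.46 CPM in 399 macrophages with Folr2, Cd163 and Lyve1, genes of resident tissue macrophages. Unclassified cells that met the same Inhba, Nos2 and Slc7a2 rule, a division made after values were seen, numbered 236 and stood at 1906 CPM. The level in the 171 macrophages rested partly on a few cells and was 1442 CPM without the 10 cells highest in Mmp12, which included 9 of them. It also followed the limit, at 1684 CPM in the 50 cells just above it and 1095 CPM in the 55 just below.

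Mmp13, collagenase 3, the main collagenase of fibrillar collagen in mice, stayed under 50 CPM in every class. It measured 48.4 CPM in tumour cells (41.2 to 56.5), 38.9 in macrophages (36.9 to 40.9), 34.4 in unclassified cells (30.5 to 38.6) and 27.2 in fibroblasts (22.1 to 33.1), with T/NK cells at 14.3 and neutrophils at 4.78. The order of the first few cannot be held, since single cells decided it. In tumour cells 63 of 161 UMIs came from 1 cell, in fibroblasts 81 of 99, and in T/NK cells all 12. Without the 10 cells highest in each member, the log2 ratio of tumour cells to the other cells turned to -1.196, against 0.57 with them. Macrophages, which held 70.9% of its UMIs, did not rest on 1 cell, at 37.3 CPM without the highest. Mmp13 was still a gene of few cells, with a UMI in 6.87% of macrophages, or 2.13% after thinning. Only 39 cells, 29 of them macrophages, held 50% of all its UMIs.

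Within macrophages, Mmp13 was detected more often beside Mmp12. It was found in 22.4% of 606 macrophages with a Mmp12 UMI (19.2 to 26.0%), against 4.55% of 4066 without (3.93 to 5.24%). Cells with Mmp12 were deeper, but thinning both groups to 5000 UMIs left 20.5% against 4.56%. Its highest levels among macrophage sub-groups were 198 CPM in the Inhba, Nos2 and Slc7a2 cells and 100.04 CPM in 81 cells with Cxcl9, Cxcl10 and Rsad2, interferon-induced genes. The level in these 81 cells rested on 70 UMIs in 11 cells, with 28 of the UMIs in 1 cell. Macrophages with Arg1 and Ccl24 had 50.8 CPM.

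Mmp14, the membrane-anchored protease that activates pro-Mmp2, was spread over more classes. Levels were 230 CPM in fibroblasts (214 to 246), 102 in tumour cells (91.6 to 114), 88.4 in unclassified cells (82.1 to 95.1) and 71.6 in macrophages (68.9 to 74.4). Tumour and unclassified cells overlapped, while macrophages lay below both. Neutrophils followed at 10.4 CPM, and T/NK cells held 1 UMI. It took 610 cells to hold 50% of its UMIs, against 34 for Mmp3. Macrophages, the largest class, held 57.2% of its UMIs, at 0.851 times the level of the other kept cells. Fibroblasts held 18.0%, at a level 3.45 times that of the other kept cells. Over all barcodes macrophages held 38.2% of Mmp14 UMIs, fibroblasts 24.8% and tumour cells 19.7%. The highest sub-group was 110 unclassified cells with Ctsk, Acp5, Atp6v0d2 and Slc9b2, from the same later division, at 258 CPM, with a UMI in 92.7% of them, close to the 250 CPM of Acta2-positive fibroblasts. The same rule met 23 macrophages, at 177 CPM.

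Mmp19, a protease of basement membrane proteins, was highest in macrophages, at 127 CPM (123 to 131), against 59.7 CPM in the other kept cells. Fibroblasts at 98.6 CPM and unclassified cells at 97.7 CPM did not differ beyond counting error, and neutrophils had 28.7 CPM. Tumour cells at 7.21 and T/NK cells at 4.76 CPM overlapped. It was detected in 43.5% of macrophages, 12.7% after thinning, and 2.08% of neutrophils after thinning. Over the macrophage sub-groups its level ranged less than that of Mmp12, between 77.2 CPM in the Cxcl9, Cxcl10 and Rsad2 cells and 237 CPM in 563 cells with Ccr2 and Vcan, genes of recently recruited monocytes.

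**Figure D1:**
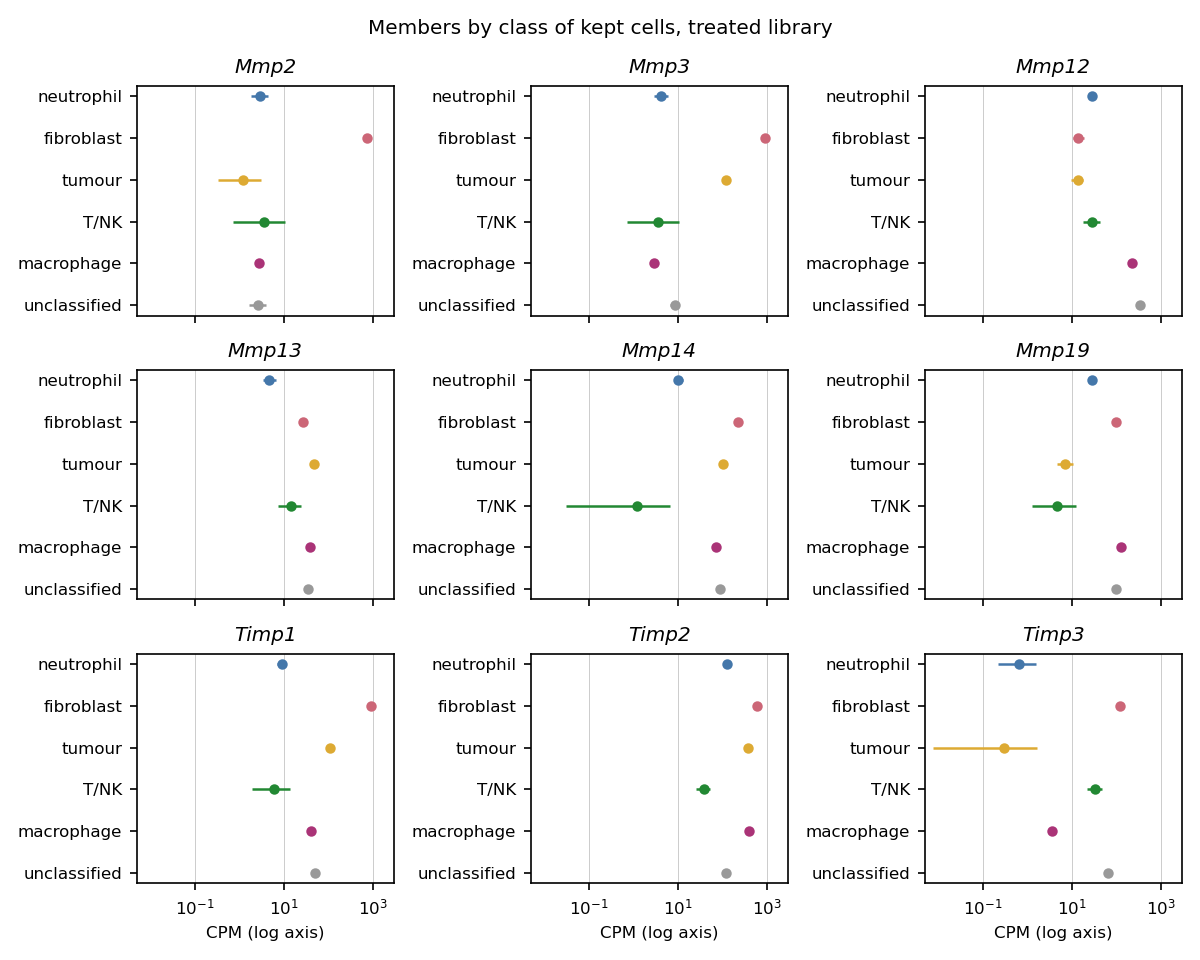
CPM of the 6 proteases and 3 inhibitors by class in the treated library (horizontal log axes; points are class sums, bars exact 95% Poisson intervals). Mmp2, Mmp3 and Timp1 stand highest in fibroblasts, at 748, 920 and 929 CPM, whereas Mmp12 stands at 222 CPM in macrophages and 348 CPM in unclassified cells.

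Among the inhibitors, Timp1, a secreted inhibitor of most MMPs that is often induced in inflamed and fibrotic tissue, stood at 929 CPM in fibroblasts (898 to 961), against 41.9 CPM in the other kept cells. Tumour cells had 110 CPM, unclassified cells 49.8, macrophages 41.6, neutrophils 9.03 and T/NK cells 5.95, of which only the last pair overlapped. Fibroblasts held 58.6% of its UMIs and macrophages 26.7%. It was found in 84.0% of fibroblasts, 43.8% after thinning. In contrast to Mmp2 and Mmp3 it was higher in Acta2-positive fibroblasts, at 1367 CPM, than in those below the limit, at 865 CPM.

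Timp2, which both blocks MMPs and carries pro-Mmp2 to Mmp14, was the most widely detected member, with a UMI in 4486 cells. It stood at 612 CPM in fibroblasts (587 to 638), 394 in macrophages (388 to 401), 372 in tumour cells (351 to 393), 127 in neutrophils, 118 in unclassified cells and 38.1 in T/NK cells. Macrophages and tumour cells overlapped, and so did neutrophils and unclassified cells. Macrophages held 72.9% of its UMIs, or 56.1% over all barcodes. After thinning it was seen in 9.61% of neutrophils and 2.62% of T/NK cells. The part of free RNA in the neutrophil level was not tested.

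The macrophage sub-group with the most Timp2 had the least Mmp12, and the one with the most Mmp12 had the least Timp2. Timp2 was highest, at 1284 CPM (1243 to 1326), in the Folr2, Cd163 and Lyve1 cells, 91.7% of which had a UMI of it, and lowest, at 88.8 CPM, in the Inhba, Nos2 and Slc7a2 cells. The unclassified cells with Inhba, Nos2 and Slc7a2 had 15.2 CPM. Cell by cell, Timp2 was found in 60.7% of macrophages with Mmp12 (56.7 to 64.6%) and 61.8% of those without (60.3 to 63.3%), which overlap. These shares were at unequal depth, with a median of 10530.5 UMIs in cells with Mmp12 and 6694.5 in those without. At 5000 UMIs per cell the shares were 46.0% with Mmp12 (40.9 to 51.1%) and 58.1% without (56.3 to 60.0%), so a difference appeared at equal depth only.

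Timp3, the inhibitor that binds to the matrix and also blocks ADAM proteases, came mostly from fibroblasts and unclassified cells. Its class levels were 121 CPM in fibroblasts (110 to 132), 64.6 in unclassified cells and 33.3 in T/NK cells, where all 28 UMIs were in 1 cell, and 3.59 CPM or less elsewhere. Unclassified cells held 46.7% of its UMIs in kept cells and fibroblasts 38.6%, an order that turned over all barcodes, at 29.7% in unclassified cells and 62.6% in fibroblasts. In 90 unclassified cells with Pecam1, Cdh5, Kdr and Egfl7 at 0.1%, genes of endothelium, Timp3 reached 815 CPM with a UMI in 54.4% of cells, and they alone held 37.8% of its UMIs. In that later division, a further 13 unclassified cells with genes of mural cells, which wrap small vessels, had 1103 CPM, a group too small to compare with the endothelial-gene cells.

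**Figure D2:**
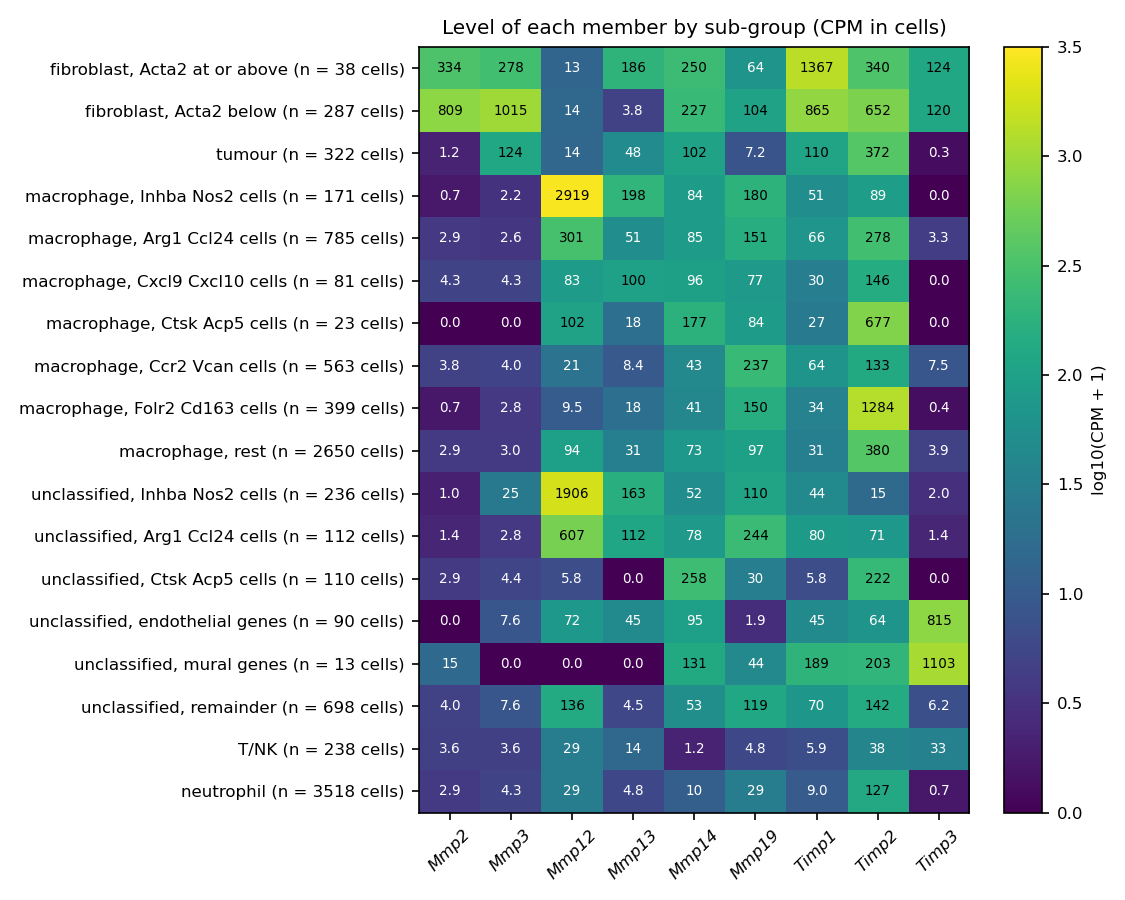
CPM of each member in sub-groups of cells, with the number of cells beside each name and colour on a log10(CPM + 1) scale. Among the highest values are 2919 CPM for Mmp12 in the Inhba Nos2 macrophages, 1367 CPM for Timp1 in Acta2-positive fibroblasts and 1284 CPM for Timp2 in the Folr2 Cd163 macrophages.

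Set against the rest of the library, 5 of the 9 members were at least 2-fold higher in fibroblasts than in the other kept cells, against 17.6% of all 14287 genes tested. They were Mmp2 (281-fold, 238 to 333), Mmp3 (83.8-fold, 76.9 to 91.4), Timp1 (22.2-fold, 21.0 to 23.4), Timp3 (9.83-fold, 8.70 to 11.1) and Mmp14 (3.45-fold, 3.19 to 3.71). Timp2 reached 1.96-fold and Mmp19 0.977-fold. The median log2 ratio of the members in fibroblasts was 1.78, and that of all genes -0.08. Mmp3 depended on the cell filter: over all 12309 barcodes its log2 ratio was 4.50 and not 6.39.

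In macrophages 1 member, Mmp19 at 2.13-fold (2.003 to 2.26), passed the 2-fold limit, where 6.29% of all genes did. Timp2 at 1.71-fold, Mmp12 at 1.63-fold and Mmp13 at 1.55-fold stayed under it. Mmp19 fell under the limit when class limits were doubled, at a log2 ratio of 0.53. The log2 ratio of Mmp12, 0.71, became -0.23 with class limits doubled, and 2.02 over all barcodes. In tumour cells no member passed, against 24.9% of all genes, with Mmp3 closest. None passed in T/NK cells, against 17.4% of genes, or in neutrophils, against 9.28%. All 9 members were at 0.5 or less of the other kept cells in neutrophils, as were 60.1% of all genes. Their median log2 ratio there was -3.05, and that of all genes -1.42.

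**Figure D3:**
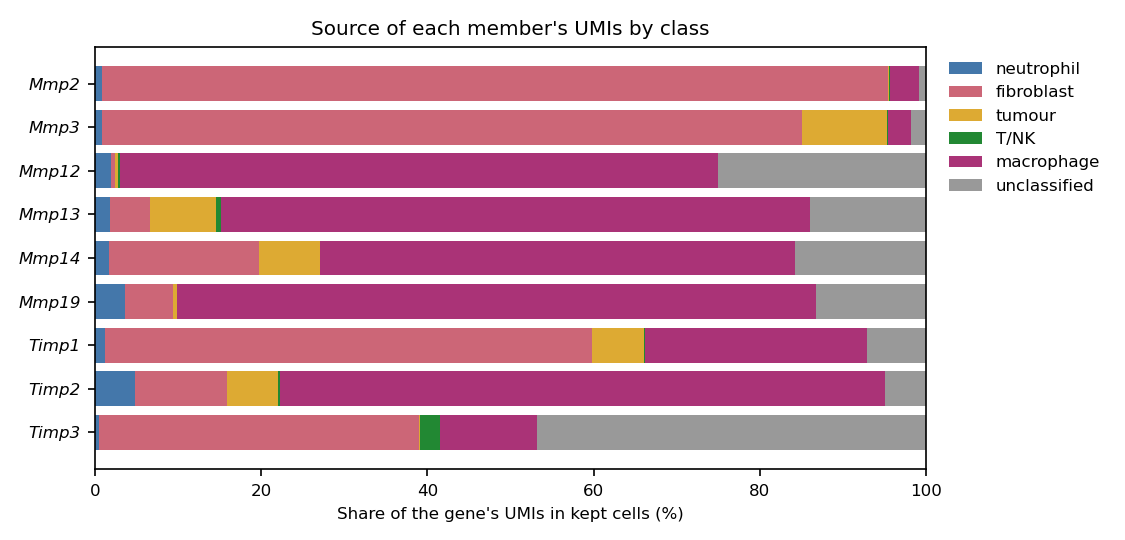
Share of each member's UMIs in kept cells by class, in percent, stacked to 100. Fibroblasts held 94.7% of Mmp2 and 84.3% of Mmp3, macrophages 72.0% of Mmp12 and 72.9% of Timp2, and unclassified cells 46.7% of Timp3, against 29.7% of it over all barcodes.

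Summed over genes, macrophages were the largest source of both kinds in the kept cells. They held 55.5% of the 31072 protease UMIs and 60.4% of the 26969 inhibitor UMIs, and fibroblasts, 3.0% of the cells, held 23.9% and 22.4% of them. Macrophages also held 37081851 of the 60652188 UMIs of all genes. Their protease level, 465 CPM, was below the 512 CPM of all kept cells. Their inhibitor level, 440 CPM, was close to the 445 CPM of all kept cells. Over all barcodes macrophages held 45.2% of protease UMIs and fibroblasts 33.1%, but fibroblasts led for the inhibitors, with 41.9%, against 34.7% in macrophages. The ratio of protease to inhibitor UMIs was 1.23 in fibroblasts (1.19 to 1.27), 1.06 in macrophages (1.04 to 1.08), 0.723 in T/NK cells, 0.614 in tumour cells, 0.584 in neutrophils and 2.49 in unclassified cells. In T/NK cells 28 of the 65 inhibitor UMIs were the Timp3 of 1 cell, and the ratio was 1.31 without the 10 highest cells of each member. The proteases summed do not include Mmp8 and Mmp9, which are described below. In neutrophils these had 4787 and 4680 UMIs, against 603 of the proteases summed and 1032 of the inhibitors. Mmp9 also had 12985 UMIs in macrophages, 8900 in unclassified cells and 108 in fibroblasts. The order of the classes by this ratio thus holds for the listed proteases only, and a sum with Mmp8 and Mmp9 was not made. The values are ratios of captured transcripts, read between groups only, and say nothing of protein or activity. In fibroblasts it was 0.733 over all barcodes. Without Mmp12 it was 0.553 in macrophages and 0.995 in unclassified cells.

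For the same listed proteases and inhibitors, the range of the ratio within macrophages was wider than that between classes. The Inhba, Nos2 and Slc7a2 cells had 24.1 protease UMIs per inhibitor UMI (20.9 to 28.1), 3.32 without Mmp12 and 13.2 without the 10 cells highest in it. The Folr2, Cd163 and Lyve1 cells had 0.168 (0.154 to 0.183). Acta2-positive fibroblasts had 0.614 (0.550 to 0.686) and those below the limit 1.33 (1.28 to 1.38). Endothelial-gene cells, with Timp3, had 0.240 (0.194 to 0.294).

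**Figure D4:**
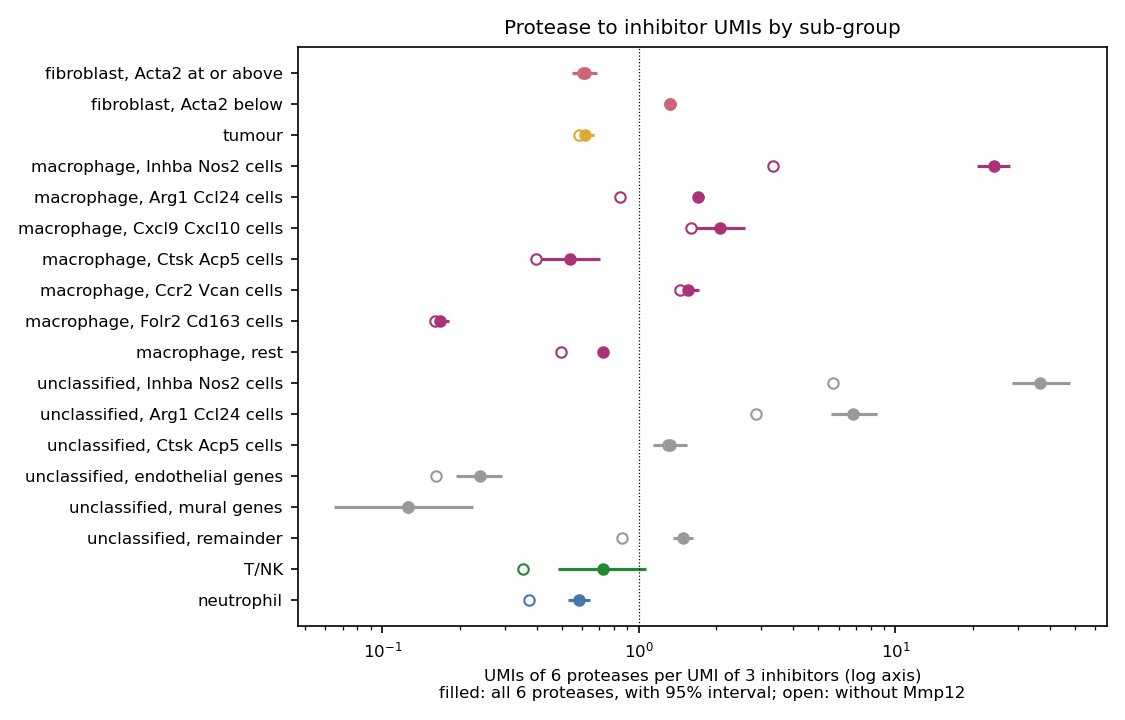
UMIs of the 6 proteases per UMI of the 3 inhibitors in each sub-group on a log axis, with 95% intervals covering counting error; open points leave out Mmp12 and the dotted line marks 1. Values run from 0.126 in unclassified cells with mural genes to 36.6 in unclassified Inhba Nos2 cells.

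Transcripts of the 3 parts of the Mmp2 activation complex, Mmp2, Mmp14 and Timp2, were found together in 233 of 325 fibroblasts, or 71.7% (66.5 to 76.5%). The share was 0.749% of macrophages. In tumour cells (0.311%) and neutrophils (0.0284%) only 1 cell each had all 3, under the limit of 3 counts. Of 238 T/NK cells 0 did, where 3 counts would be a share of 1.26% and the exact interval reaches 1.54%. Thinned to 5000 UMIs, the share was 50.6% of 265 fibroblasts and 0.127% of 3148 macrophages. It was 0 of 240 tumour cells (interval up to 1.53%) and 0 of 37 T/NK cells (interval up to 9.49%). Tumour cells and macrophages thus carried Mmp14 and Timp2 transcripts with little Mmp2. In fibroblasts the single shares, unthinned, were 91.1% for Mmp2, 80.0% for Mmp14 and 92.6% for Timp2. Whether the 3 met in a fibroblast more often than these shares imply was not tested.

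The neighbours on chromosome 9 did not all share a class. In their order along it, Mmp13 and Mmp12 had 70.9% and 72.0% of UMIs in macrophages, Mmp3 had 84.3% in fibroblasts, and Mmp8, the neutrophil collagenase and one of the check markers of that class, had 74.3% in neutrophils at 636 CPM. Mmp10, with 107 UMIs, and Mmp27, with 103, were low throughout. Mmp1a, Mmp1b, Mmp20 and Mmp7, the other genes of this 10-gene cluster, had between 1 and 7 UMIs each. Mmp13, Mmp3 and the second start of Mmp12 carry the same motif, and the first start of Mmp12 does not, as printed above. Which start of Mmp12 was used in these cells was not tested.

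**Figure D5:**
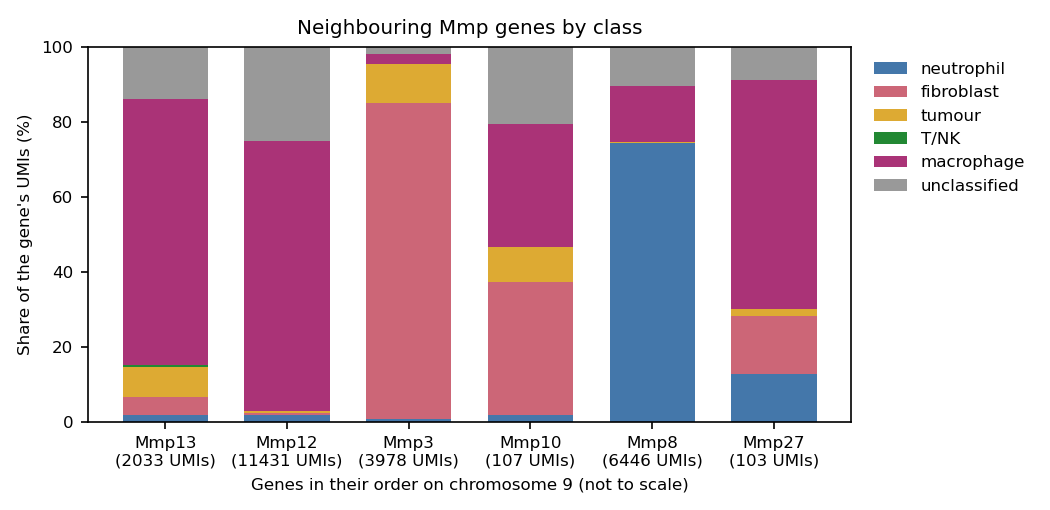
Share of UMIs by class, in percent, for the 6 Mmp genes of the chromosome 9 cluster with at least 50 UMIs, in gene order and not to scale, with UMI totals under each name. Mmp3, with 84.3% from fibroblasts, lies between Mmp12, with 72.0% from macrophages, and Mmp8, with 74.3% from neutrophils.

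Of the other 17 MMP genes listed, 9 reached 50 UMIs. In neutrophils 2 of these 9 were at least 2-fold higher than in the other kept cells, Mmp8 and Mmp25, a membrane-bound protease of leukocytes, at 73.1 CPM. In fibroblasts 5 were, Mmp10, Mmp11, Mmp16, Mmp23 and Mmp27, led by Mmp23 at 146 CPM. In tumour cells 2 passed, Mmp11 and Mmp15, and in macrophages 0. Of all 14287 genes tested, 9.28% passed in neutrophils, 17.6% in fibroblasts, 24.9% in tumour cells and 6.29% in macrophages. The count in tumour cells is near that share, and nothing is read from it. In T/NK cells the level of Mmp15 passed as well, but on 2 UMIs, under the limit of 3 counts, and nothing is read from it. Mmp9, gelatinase B, stood at 622 CPM in neutrophils, 350 CPM in macrophages and 1081 CPM in unclassified cells.

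Other listed genes were counted in the same way, most often passing in fibroblasts, where 17.6% of all genes passed. Of 12 ADAM proteases 7 passed 2-fold there, such as Adamts1 at 292 CPM, and of 8 matrix substrates 6 did. Nothing is read from the substrate count, since the fibroblast rule itself used the matrix genes Col1a2, Col3a1 and Dcn. Col1a1, among these 6 substrates, was also a check marker of the class. Of 5 activators 1 passed, Plat, the tissue plasminogen activator, at 358 CPM, a count near the share of all genes. In neutrophils, where 9.28% of all genes passed, the receptor Plaur was the 1 activator of 5 that passed, at 1827 CPM. Plaur gathers urokinase at the cell surface. In macrophages, where 6.29% of all genes passed, 1 of the 12 ADAM proteases did, Adam15 at 70.8 CPM. Of the 8 substrates 2 passed in macrophages, Fn1 and Spp1. Timp4, the remaining TIMP, had 161 UMIs, 140 of them in unclassified cells.

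Genes whose levels ran most like a member's were taken over 13 groups of at least 30 cells by Pearson's r of log2(CPM + 10) among 11148 genes. The groups come from 1 library and these values are descriptions. Fbln1, Mmp23 and Pcsk5 were nearest to Mmp2 (r = 0.998 each), and Hspb8, Flnc and Steap1 to Mmp3 (0.991 to 0.995). Fcrlb (0.931) and Dcstamp (0.895), a gene of macrophage fusion, were nearest to Mmp12. For Mmp19 they were Metrnl (0.974), Mfsd7a (0.939) and Ccl2 (0.927), and for Timp2 Pdgfc (0.883), Cd63 (0.880) and Fam20b (0.855). Mmp13 had no close match, with Alkbh2 first at 0.805.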

How the data were processed

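The authors deposited raw counts of UMIs for each gene in each barcode. Cell Ranger 8.0.1 wrote the matrix, per the file headers, while the submitters' processing notes name Cell Ranger and STAR. The genome build, the annotation and any cell filter were not given in the sources used here. The kept cells held at most 19989 UMIs each, while 1097 of the 1474 left-out barcodes held 20000 or more. The authors also deposited a list of kept cells with their library, through which the matrix was assigned to the treated group. The planned comparison of treated with control tumours could therefore not be run. With 1 library, no test was made.

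UMIs were summed by class in Python 3.11.15 (pandas 2.3.3, scipy 1.17.1 and numpy 2.4.6). Ratios to the other kept cells have the exact conditional interval of 2 Poisson counts, and genes with at least 50 UMIs were called at 2-fold. The code was run on simulated Poisson counts. These cannot show whether the intervals hold where a few cells carry most UMIs of a gene. For shares of cells, each cell was thinned to 1000 or 5000 UMIs and shallower cells were left out. Free RNA was not subtracted. Doublets were scored with Scrublet in scanpy 1.11.5, whose own threshold marked 0 cells and so had not worked. Leaving out the 542 cells with the highest scores was an alternative. Promoters were matched by symbol, for 7 of 9 members. Figures were drawn with matplotlib 3.10.9.

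The members, gene lists, class rules and sub-groups were chosen with earlier results of these data known. All 9 members were named in every class, and genes of fixed pathway lists by counts with examples picked after their values were seen. Further divisions of unclassified cells, the split of fibroblasts by Mmp3 and leaving out the 10 highest cells of each member were also chosen after seeing the data. The list of further inhibitors is not reported here apart from Timp4.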

Additional observations from a re-analysis of the deposited data

Results flagged for a closer look

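The 1474 barcodes that the authors left out, 1097 of them at 20000 UMIs or more, held UMIs of each member, and no value above uses them except where all barcodes are named. They held 3569 UMIs of Mmp2, 6044 of Mmp3, 4676 of Mmp12, 794 of Mmp13, 4045 of Mmp14, 1493 of Mmp19, 16527 of Timp1, 10857 of Timp2 and 1457 of Timp3. By the same class rules, 242 of these barcodes were fibroblasts, with a median of 27819 UMIs. Their Timp1 level was 1818 CPM, against 929 CPM in kept fibroblasts, and their Mmp3 level 551 CPM, against 920 CPM. Another 436 were tumour cells with a median of 29962.5 UMIs, and 49.1% of them had a UMI of Mmp3, at 120 CPM, against 124 CPM in kept tumour cells. In 459 left-out macrophages Mmp12 stood at 484 CPM, against 222 CPM in kept macrophages. Whether these barcodes hold more than 1 cell was not tested.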

How the results depend on the processing

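Doubling or halving class limits, all barcodes, dropping cells of several rules or high doublet scores, cell means, classes at equal weight, and a minimum of 10 or 200 UMIs were tried, with the 10 highest cells of each member left out as an addition after seeing the data. Counts of members at 2-fold in neutrophils and T/NK cells stayed at 0 under all of them, and in fibroblasts at 5 or 6. In tumour cells the count was 1, not 0, with doubled limits, cells of 1 rule at most, high doublet scores dropped, cell means and the 10 highest cells left out (Mmp3), and with classes at equal weight (Mmp13). In macrophages it was 0 with doubled limits, and 2, not 1, over all barcodes, with halved limits and at equal weight (Mmp12 added), with cell means (Timp2 added) and without the 10 highest cells (Mmp13 added). Protease to inhibitor ratios over all barcodes were 0.733 in fibroblasts, 0.537 in tumour cells and 1.21 in macrophages. Without the 10 highest cells they were 1.17 in fibroblasts, 0.531 in tumour cells, 0.910 in macrophages and 1.31 in T/NK cells. The cause was not tested. No log2 ratio of a member at 2-fold or more changed sign in its leading class. Those of Mmp12 in macrophages and Mmp13 in tumour cells, under 2-fold, did. By the ratio of the listed proteases, without Mmp8 and Mmp9, to the inhibitors, fibroblasts stood above macrophages in kept cells, at 1.23 against 1.06. Over all barcodes fibroblasts stood below macrophages. Of 63 log2 ratios of single members 34 moved by less than their interval, and of 63 shares of UMIs 17. The share of Timp1 UMIs in fibroblasts was 76.3% over all barcodes, against 58.6%. That of Mmp3 in fibroblasts was 74.7% over all barcodes, against 84.3%, and in tumour cells 22.5%, against 10.3%. In macrophages that of Mmp14 was 38.2% over all barcodes, against 57.2%, and that of Timp2 56.1%, against 72.9%. With doubled limits that of Mmp12 in macrophages was 48.7%, against 72.0%. No paired analysis was possible because 1 library was analysed and the labels give no replicate numbers. Depth limits T/NK cells most, where 3 UMIs are 3.57 CPM.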

Other observations

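The uneven use of Mmp3 among fibroblasts went with other genes, in a division made after values were seen and on the gene itself. In 147 fibroblasts with 3 or more Mmp3 UMIs, Saa3, an acute-phase protein, stood at 4835 CPM, against 377 CPM in 137 fibroblasts with none. Cxcl12, a chemokine that holds leukocytes in tissue, had 1396 CPM with Mmp3 and 289 CPM without. Cxcl13, a B cell chemokine, had 167 CPM with Mmp3 and 10.8 CPM without. Csf3, the growth factor of neutrophils, had 92.7 CPM in cells with Mmp3 and 9.47 CPM in cells without. Acta2 ran the other way, at 166 CPM with Mmp3 and 1003 CPM without. Mmp2 differed less, at 790 CPM with and 675 CPM without, as did Timp1, at 798 CPM with and 1084 CPM without. Median depth was 12682 UMIs with Mmp3 and 11157 without. These values come from cells of 1 library and were not tested.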
